A study of Mus musculus with 4 samples.

Results

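Genes that mark macrophages were examined in whole testes of mice that lack the transcription factor RFX2. The members were 10 genes taken by symbol, Csf1r, Emr1, Mrc1, Cd163, Cd14, Cd68, Lyz2, C1qa, C1qb and C1qc, out of 22311 gene symbols listed. All 10 were listed in every sample, each as a single entry. RNA was extracted from the testes of male mice aged 24 days, from 2 mutant samples (rfx2-/-) and 2 control samples. The strain is DBA and the controls are wild type by the labels, whereas the methods of the study describe heterozygous controls and a mixed background of 129/s6 and C57BL/6. In the mutant allele, the exons that encode the DNA binding domain were replaced by a neomycin-resistance cassette in all cells, and the line came from a single embryonic stem cell clone. The levels are FPKM, fragments per kilobase of gene and M mapped fragments, and can therefore be compared between genes. The genotypes were compared by limma, two-sided, on log2(FPKM + 1). The test ran over the 12985 genes that reached an FPKM of 1 in 2 or more of the samples, and p-values were adjusted by the Benjamini-Hochberg method over all of them.

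Macrophages are the most common immune cells of the testis, where they lie between the Leydig cells and around the seminiferous tubules. They depend on signalling through the CSF1 receptor, take up dead cells and debris, and make the subunits of C1q, which starts the classical complement pathway. In whole testes most RNA comes from germ cells and Sertoli cells, so that a level is a share of all RNA. In such bulk samples fewer cells of a type and less RNA per cell cannot be told apart. Libraries were not made from sorted macrophages, and some of these genes can also be transcribed in other cells.

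The targeted gene, Rfx2, had an FPKM of 36.7 and 39.8 in the mutants and of 123 and 89.4 in the controls, so that the mutant libraries were the lower ones. The confidence bounds deposited with the FPKM corresponded to 17.2 to 20.3 M fragments in a library. This estimate covers only entries with a positive lower bound and is not the sequencing depth. The study reports a larger number of reads for each library. Of the libraries, mutant 1 stood apart in its markers of elongating spermatids, with a summed FPKM of 2004 against 6307 to 9150 in the other 3. Mutant 2, at 7466, was above control 2, at 6307. The study saw no elongating spermatids in mutant testes, and by RT-PCR no difference in Prm1, Prm2, Tnp1 or Tnp2. The sum is therefore a level of transcripts and not a count of such cells.

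The sequence of Lyz2 is shown because part of its transcript is identical to that of a neighbouring gene. Lyz2 encodes the lysozyme of macrophages, an enzyme that cleaves bacterial cell walls. It is transcribed from the minus strand of chromosome 10, between positions 116714390 and 116719377 of NCBIM37 (mm9), 5474 bases from its paralog Lyz1, the lysozyme gene of Paneth cells. Their coding sequences in GENCODE M1 were both 447 bases long and differed at 22 positions, an identity of 95.1%. The first 120 coding bases, 5′ to 3′, are printed with the 11 positions at which they differ in capitals.
Lyz2: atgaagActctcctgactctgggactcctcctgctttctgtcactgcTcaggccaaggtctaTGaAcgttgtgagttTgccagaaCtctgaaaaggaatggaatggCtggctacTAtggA
Lyz1: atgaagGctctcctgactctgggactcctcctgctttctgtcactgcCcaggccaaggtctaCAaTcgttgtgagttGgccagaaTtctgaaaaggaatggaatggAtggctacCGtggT
Of the windows of 50 bases in the Lyz2 transcript, 15.4% were also found in Lyz1. For each of C1qa, C1qb, C1qc, Csf1r, Emr1, Mrc1, Cd68 and Cd14, none was found in another protein-coding gene. The FPKM of Lyz1 was 0.000131 in mutant 1, 0.0734 in mutant 2, 0.163 in control 1 and 0.216 in control 2. Nearly all fragments of the pair were thus assigned to Lyz2 in every library.

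The 3 genes of C1q are neighbours on chromosome 4, minus strand, between positions 136436044 and 136454718 of NCBIM37 (mm9), a stretch of 18675 bases. Each encodes 1 of the chains from which the C1q molecule is assembled, and each had 3 exons in the annotation. Promoters from 250 bases before to 50 bases after the start site are shown for C1qb and C1qc, as members of this cluster, and for Cd68, the only member in which the genotypes did not overlap. The sequences are those of RefSeq on GRCm38.p6, chr4:136886151-136886450, chr4:136892865-136893164 and chr11:69666121-69666420, all of the minus strand and written 5′ to 3′. Capitals mark GAGGAA on either strand (TTCCTC when read on the other), the core of a site for PU.1, the transcription factor of the macrophage lineage.
C1qb: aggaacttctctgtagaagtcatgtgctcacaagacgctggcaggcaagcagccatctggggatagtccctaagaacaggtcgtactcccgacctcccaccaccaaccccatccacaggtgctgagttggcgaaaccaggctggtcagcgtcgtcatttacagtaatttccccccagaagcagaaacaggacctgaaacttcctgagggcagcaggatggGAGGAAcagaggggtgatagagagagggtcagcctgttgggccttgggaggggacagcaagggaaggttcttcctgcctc
C1qc: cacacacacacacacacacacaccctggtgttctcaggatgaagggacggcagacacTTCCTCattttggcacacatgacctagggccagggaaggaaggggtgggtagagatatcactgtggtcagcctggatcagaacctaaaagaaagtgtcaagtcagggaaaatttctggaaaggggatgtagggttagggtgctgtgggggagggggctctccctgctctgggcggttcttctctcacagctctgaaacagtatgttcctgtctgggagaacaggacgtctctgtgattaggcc
Cd68: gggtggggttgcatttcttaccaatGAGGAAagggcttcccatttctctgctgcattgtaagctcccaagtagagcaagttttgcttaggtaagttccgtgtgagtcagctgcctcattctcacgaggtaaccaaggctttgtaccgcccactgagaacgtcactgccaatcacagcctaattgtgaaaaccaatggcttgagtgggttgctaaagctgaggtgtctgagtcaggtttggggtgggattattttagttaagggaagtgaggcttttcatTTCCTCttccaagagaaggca
The promoters of C1qa, Csf1r, Emr1 and Cd14 were not examined here, so that the counts of matches leave these members out. Promoters were examined for 6 members, Cd68, Mrc1, Cd163, Lyz2, C1qb and C1qc. GAGGAA lay in 4 of these 6, and in 28.3% of the 32851 mouse promoters of the same length. The longer GAGGAAGT, which contains it, lay in the promoter of C1qc and in 3.20% of all promoters. An X-box, the element bound by RFX factors, was found without mismatch in none of the 6 and in 1.53% of all promoters. These matches describe the letters of the windows and are no test of binding.

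Macrophage transcripts were low in the testis and spanned a wide range. Lyz2 had the highest level, with an FPKM of 15.3 ± 6.02 (SD over the 4 samples). The C1q genes followed at 8.84 ± 1.42 for C1qb, 8.78 ± 2.40 for C1qa and 8.62 ± 2.10 for C1qc. Mrc1 had a mean of 4.79 ± 0.71, Csf1r of 3.32 ± 0.67 and Cd68 of 1.94 ± 0.51. Emr1, Cd14 and Cd163 were the lowest, at 1.08 ± 0.36, 0.919 ± 0.137 and 0.171 ± 0.047. In this order the ranges of neighbours overlapped except between Lyz2 and C1qb, between Csf1r and Cd68, and between Cd14 and Cd163. The 3 C1q genes could not be ranked, since C1qb was above C1qa in 2 of the 4 samples and C1qa above C1qc in 2 of the 4.

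**Figure D1:**
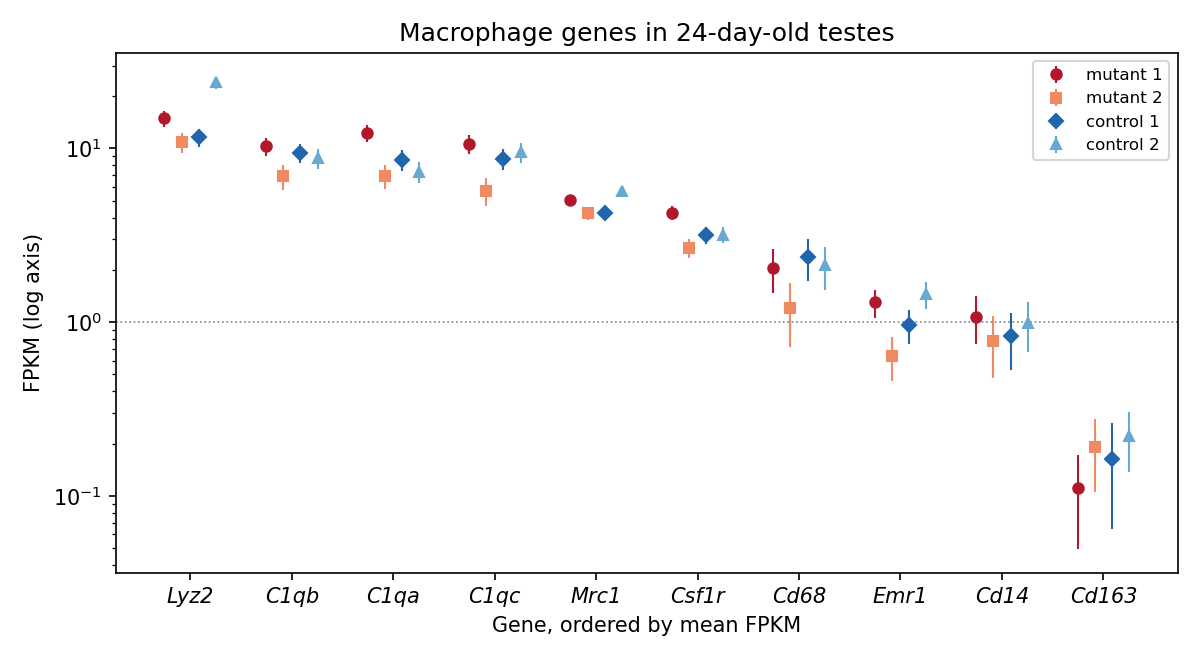
FPKM of the 10 macrophage genes (vertical log axis) in mutant 1, mutant 2, control 1 and control 2, with bars for the confidence bounds deposited by the authors and a dotted line at an FPKM of 1. Mutant 2 was the lowest of the 4 samples for 9 of the 10 genes, and the samples of the genotypes overlapped for 9 of the 10.

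The receptors that act at the cell surface did not differ detectably between the genotypes. Csf1r encodes the receptor for the growth factors CSF1 and IL34, on which macrophage survival depends. Its FPKM was 4.27 in mutant 1 and 2.67 in mutant 2, and 3.18 in both control 1 and control 2. The controls lay between the mutant samples, and the log2 difference was 0.073 (SE 0.24, 95% interval -0.49 to 0.64). Csf1r overlaps Hmgxb3 on the opposite strand over its end, and whether the counting used strand is not given in the sources used here.

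Emr1, also named Adgre1, encodes an adhesion receptor that is a standard surface marker of mouse macrophages. Its FPKM was 1.30 in mutant 1, 0.639 in mutant 2, 0.959 in control 1 and 1.44 in control 2. Both genotypes covered the middle of the range, and mutant 2 was the lowest. The log2 difference was -0.17 (SE 0.24, 95% interval -0.72 to 0.37). Emr1 lies on chromosome 17 from 57498109 to 57622952 in NCBIM37 (mm9), 0.528 Mb from Rfx2.

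Mrc1 encodes the mannose receptor CD206, which takes up glycoproteins. Its FPKM was 5.02 in mutant 1, 4.23 in mutant 2, 4.23 in control 1 and 5.70 in control 2, the narrowest range of the 10 genes, with the highest sample at 1.35 times the lowest. The lower sample of each genotype reached nearly the same level, and the log2 difference was -0.078 (SE 0.23, 95% interval -0.61 to 0.46).

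Cd163 encodes the scavenger receptor for complexes of haptoglobin and haemoglobin. It was the one member in which mutant 1 was the lowest sample, with an FPKM of 0.111 in mutant 1, 0.190 in mutant 2, 0.163 in control 1 and 0.221 in control 2. Its confidence bounds corresponded to 11 to 28 fragments in a library, and every library's bounds overlapped those of the other 3. Cd14 encodes the co-receptor for bacterial lipopolysaccharide. Its FPKM was 1.08 in mutant 1, 0.780 in mutant 2, 0.832 in control 1 and 0.988 in control 2, from 26 to 42 fragments. Both genes were under the filter and had no test in the comparison. Without a filter their log2 differences were -0.052 for Cd163 (95% interval -0.20 to 0.094) and 0.010 for Cd14 (95% interval -0.36 to 0.38), values that the pseudocount of 1 shrinks.

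Among the lysosomal genes, the levels of Cd68 did not overlap between the genotypes, by a margin within its error. Cd68 encodes a glycoprotein of the lysosomal membrane. Its FPKM was 2.05 in mutant 1, 1.20 in mutant 2, 2.37 in control 1 and 2.12 in control 2. The control samples were the higher ones, but mutant 1 and control 2 were separated by less than their confidence bounds, and the log2 difference was -0.32 (SE 0.23, 95% interval -0.86 to 0.21). Of all genes tested, 15.2% had both mutant samples below both control samples and 31.5% did not overlap in either direction, against 1 of the 8 members tested.

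The FPKM of Lyz2 was 14.9 in mutant 1, 10.9 in mutant 2, 11.6 in control 1 and 24.0 in control 2. Control 2 stood well above the other 3 samples, at 2.06 times control 1. The log2 difference was -0.37 (SE 0.32, 95% interval -1.12 to 0.37), the widest interval among the members. Without control 2 the difference changed sign, to 0.12, so that the lower mean of the mutants rested on that library.

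The C1q genes had their highest levels in mutant 1 and their lowest in mutant 2, with both controls between them, and none passed the test. The FPKM of C1qa was 12.2 for mutant 1, 6.97 for mutant 2, 8.57 for control 1 and 7.35 for control 2. For C1qb the values were 10.3, 6.91, 9.43 and 8.76 in the same order. For C1qc they were 10.6, 5.69, 8.69 and 9.49. The log2 differences were 0.20 for C1qa (SE 0.27, 95% interval -0.43 to 0.83), -0.10 for C1qb (SE 0.23, 95% interval -0.64 to 0.44) and -0.19 for C1qc (SE 0.28, 95% interval -0.84 to 0.46). The 3 subunits stayed close to each other within each library. The highest was 1.19 times the lowest in mutant 1, 1.22 times in mutant 2, 1.10 times in control 1 and 1.29 times in control 2. Their summed FPKM was 33.1 in mutant 1, 19.6 in mutant 2, 26.7 in control 1 and 25.6 in control 2.

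In limma, 0 of the 8 members tested passed an adjusted p under 0.05, and 0 passed an unadjusted p under 0.05, the smallest being 0.203 for Cd68. The adjusted p was 0.9999 for each of the 8. Of all 12985 genes, 2.52% were called lower and 0.308% higher in the mutants, and 6.68% were lower and 2.01% higher at an unadjusted p under 0.05. The median log2 difference of the 8 members was -0.13, against 0.032 over all genes tested. Of the 8, 6 had a negative and 2 a positive difference. For 7 of the 8, all but Cd68, the sign changed when a single library was left out. The differences of Csf1r and C1qa turned negative without mutant 1, at -0.19 and -0.17, and those of Emr1, Mrc1, C1qb and C1qc turned positive without mutant 2, at 0.072, 0.024, 0.16 and 0.20, while those of Mrc1 and Lyz2 were 0.10 and 0.12 without control 2. The difference of Cd68 kept its sign but was -0.087 without mutant 2 and -0.56 without mutant 1. With 2 samples per genotype these intervals do not show that the levels were alike. As folds on the FPKM + 1 scale they ran from 0.460, the lower bound of Lyz2, to 1.78, the upper bound of C1qa.

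**Figure D2:**
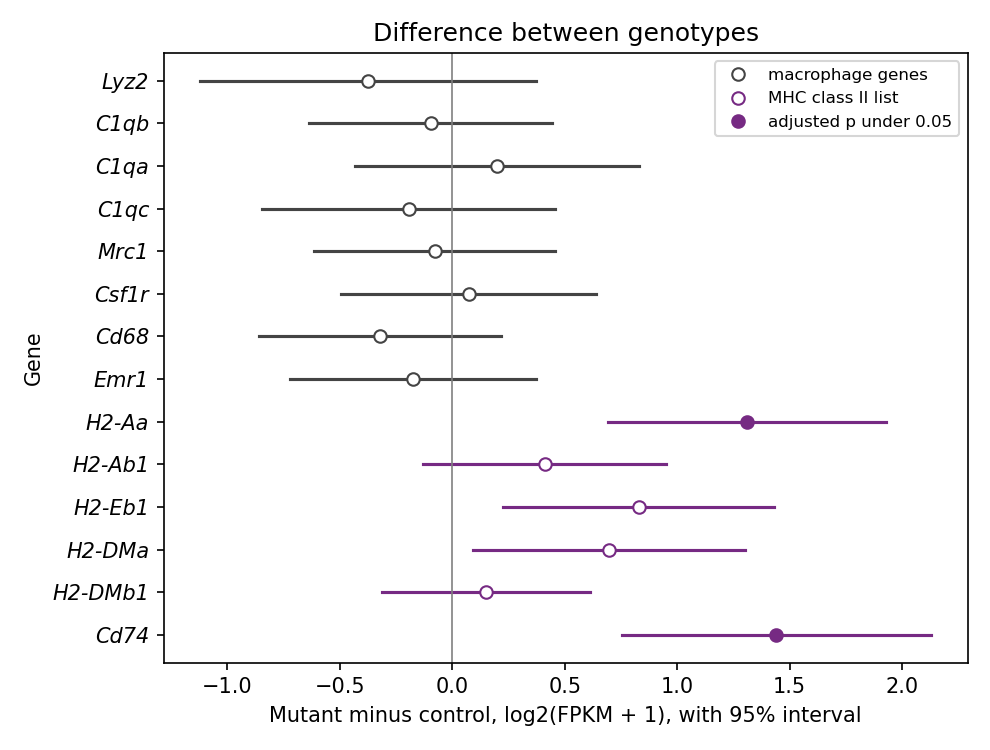
Difference between mutant and control samples on the log2(FPKM + 1) scale (horizontal axis) with its 95% interval from limma, for the 8 macrophage genes tested (grey) and the 6 tested genes of the MHC class II list (purple). Filled circles mark an adjusted p under 0.05, which H2-Aa and Cd74 reached, and the interval of every macrophage gene included 0.

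The mutant samples differed from each other in most macrophage genes. The gap between mutant 1 and mutant 2 on the log2(FPKM + 1) scale exceeded the difference between the genotype means for 8 of the 8 members tested, against 64.3% of all genes tested, and the gap between the controls did so for 3 of the 8, against 62.2%. A gap between single libraries has a larger error than a difference of means. The gap between the mutants was the larger of the pair for 6 of the 8, against 48.1% of all genes tested, and the exceptions were Lyz2, at 0.42 between the mutants and 0.98 between the controls, and Mrc1, at 0.20 and 0.36. Mutant 1 was above mutant 2 for 9 of the 10 genes, against 68.1% of all genes tested, from 1.19 times for Mrc1 to 2.03 times for Emr1. For Cd163 mutant 1 was at 0.580 of mutant 2. Of the 8 members tested, 7 had confidence bounds in mutant 1 entirely above those in mutant 2, Cd68 being the exception, whereas 33.4% of the 12901 tested genes with a single entry did. All 8 had their lowest level in mutant 2, against 25.3% of all genes tested. The median of mutant 1 minus mutant 2 was 0.50 on the log2(FPKM + 1) scale for the 8 members and 0.12 over all genes tested. The gap was not particular to the members. Among the lists described below, the median was 0.51 for other leukocyte and macrophage genes, 0.52 for MHC class II, 0.68 for Leydig and 0.28 for Sertoli cell markers. It was negative for complement (-0.030), red blood cell (-0.60), round spermatid (-1.02) and elongating spermatid genes (-1.44), and for the 1 tested gene of the T and of the B cell list. Each of these compares single libraries, and genes that share a cell type are not independent.

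Between the controls the members split. Control 2 had confidence bounds entirely above those of control 1 for 3 of the 8 members, Lyz2, Mrc1 and Emr1, and 32.6% of the 12901 genes did. For 0 of the 8 was control 1 entirely above control 2, against 20.4% of the 12901. C1qa, C1qb and Cd68 were higher in control 1, by less than their bounds, and Csf1r had nearly the same level in both.

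**Figure D3:**
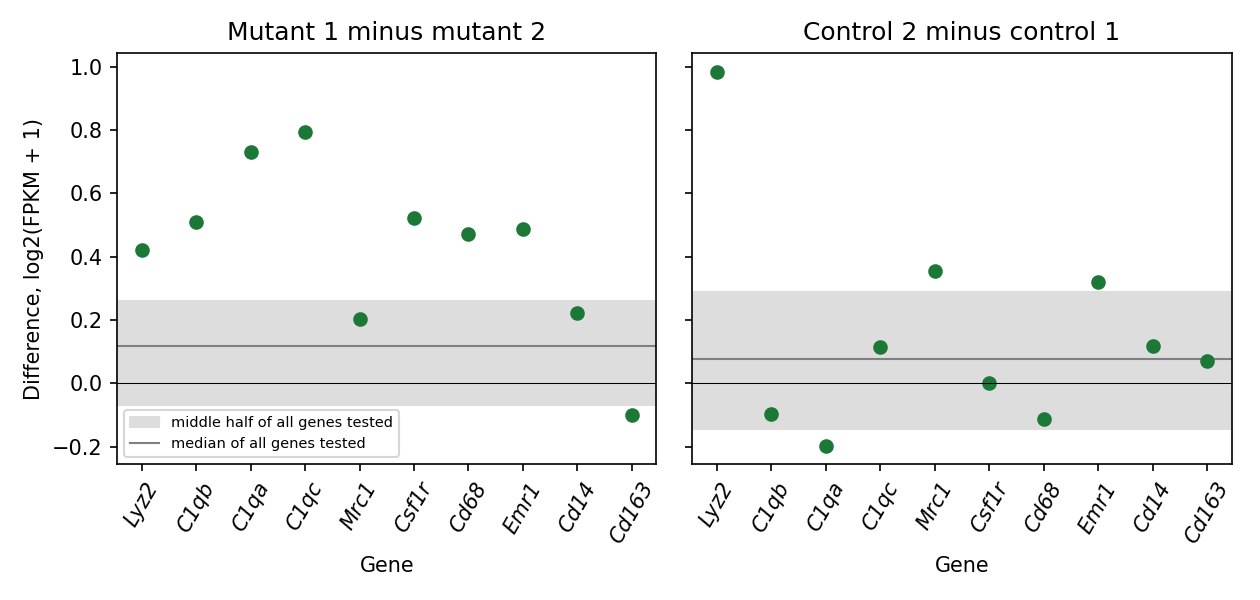
Difference on the log2(FPKM + 1) scale between the mutant samples (left) and between the control samples (right) for each of the 10 macrophage genes (points). The grey band spans the 25th to 75th percentile of all genes tested and the grey line is their median. In the mutants 7 of the points lie above the band, and in the controls Lyz2, at 0.98, stands far above the others.

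Ratios between members were taken within each library. Mrc1 was 1.18 times Csf1r in mutant 1, 1.58 times in mutant 2, 1.33 times in control 1 and 1.79 times in control 2. The ratio was higher in mutant 2 than in mutant 1, and the genotypes overlapped. Cd68 was at 0.481 of Csf1r in mutant 1, 0.451 in mutant 2, 0.747 in control 1 and 0.666 in control 2. For this pair the mutant ratios were the lower ones, a split that was noticed after the values were seen and was not tested. Lyz2 was 1.45, 1.57, 1.23 and 2.74 times C1qb in mutant 1, mutant 2, control 1 and control 2.

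Genes of the CSF1 receptor pathway, macrophage transcription factors and other receptors of colony-stimulating factors were next compared, as 1 list. Of 15 genes listed, 14 were analysed here and 9 were tested, of which 1 was called lower and 0 higher by limma, with the same counts at an unadjusted p under 0.05. Csf1, the main ligand, had an FPKM of 1.65 in mutant 1, 1.25 in mutant 2, 1.66 in control 1 and 1.57 in control 2 (log2 difference -0.10, SE 0.20). Il34, the other ligand, was under the filter at 0.437, 0.742, 0.549 and 0.519 in the same order. Tyrobp, an adaptor of receptors on myeloid cells, had the highest level of the list and followed the members in being lowest in mutant 2, with 6.61, 3.72, 4.12 and 5.71. Spi1, which encodes PU.1, was not analysed here. The gene called lower was Nr1h3, a transcription factor of the list, which encodes the oxysterol receptor LXR alpha. Its FPKM was 1.41 and 1.48 in the mutants and 4.75 and 4.02 in the controls, a log2 difference of -1.14 (SE 0.21, adjusted p = 0.0287 from limma). The adjusted p of Nr1h3 was above 0.05 in 4 of 13 alternatives, among them without control 1 (0.202, the highest) and without control 2 (0.0972). Nr1h3 overlaps a non-coding transcript on the same strand.

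Of the MHC class II genes, H2-Aa and Cd74 were higher in the mutants. The genes of this list present peptides to T cells and are used by macrophages, dendritic cells and B cells. Of 10 listed, 6 were tested, of which 2 were called higher and 0 lower by limma, and 4 were higher at an unadjusted p under 0.05. H2-Aa, the alpha chain of the I-A molecule, had an FPKM of 5.01 in mutant 1 and 2.69 in mutant 2, and of 0.962 and 0.834 in the controls (log2 difference 1.31, SE 0.27, adjusted p = 0.0471 from limma). Cd74, the invariant chain that guides class II molecules, had 12.2 in mutant 1 and 6.43 in mutant 2, and 2.81 and 2.51 in the controls (log2 difference 1.44, SE 0.30, adjusted p = 0.0488 from limma). For both genes mutant 1 was the highest and mutant 2 the next, with the controls close together. For all 6 tested genes the mutant samples were both above the control samples, against 16.3% of all genes tested. H2-Aa and H2-Eb1 passed the filter only through the mutant samples, since their controls were under an FPKM of 1. A gene that passes in this way has its mutant samples above its controls by construction. Of the listed genes under the filter, H2-DMb2, H2-Oa and H2-Ob overlapped between the genotypes. Ciita had 0.0604 in mutant 1, 0.0786 in mutant 2, 0 in control 1 and 0.0132 in control 2. These values are too near the floor for the higher mutants to be read as a difference.

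The other tested class II genes did not pass the adjusted threshold. H2-Ab1, the beta chain, had the highest mean level of the list, with 8.76 and 6.58 in mutant 1 and 2 and 6.14 and 4.87 in control 1 and 2. H2-Eb1 had 2.85 and 1.40 in the mutants and 0.829 and 0.604 in the controls, with a log2 difference of 0.83 (SE 0.26, adjusted p = 0.244 from limma). H2-DMa had 7.60 and 6.09 in the mutants and 4.87 and 2.96 in the controls, and H2-DMb1 2.27 and 2.33 against 2.05 and 1.91. The median log2 difference of the 6 genes was 0.76, against 0.032 over all genes tested. This median includes H2-Aa and H2-Eb1, which passed the filter only through the mutants. The calls of H2-Aa and Cd74 were close to the threshold, and without a filter their adjusted p from limma was 0.224 and 0.233. Each remained under 0.05 in 5 of 13 alternatives, with an adjusted p of up to 0.281 for H2-Aa and 0.309 for Cd74, both without control 2. The values were 0.259 and 0.284 without control 1, and 0.0560 and 0.0625 without mutant 1. H2-Aa lies on chromosome 17, 22.5 Mb from Rfx2, and its end overlaps H2-Ab1 on the opposite strand. Of 8 B cell markers listed, 7 were analysed here and 6 were under an FPKM of 1 in every sample, and the B cell marker Cd79a had 0.472 in mutant 1, 0.0345 in mutant 2, 0.0309 in control 1 and 0.0875 in control 2. The part of B cells in the class II values was not tested.

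Complement, scavenger and clearance genes beyond the members gave no call. Of 37 complement components, receptors and regulators, 35 were analysed here, 19 were tested and limma called 0, with 3 lower and 0 higher at an unadjusted p under 0.05. Clu, which encodes clusterin and is also a Sertoli cell product, had the highest level of the list. Its FPKM was 556 in mutant 1, 492 in mutant 2, 368 in control 1 and 500.2 in control 2. Of 20 scavenger and mannose receptors and genes of haem handling, 12 were tested, 0 were called and 1 was higher at an unadjusted p under 0.05. That gene was Msr1, the macrophage scavenger receptor, with 5.81 in mutant 1, 11.7 in mutant 2, 2.81 in control 1 and 3.02 in control 2 (log2 difference 1.25, SE 0.31, adjusted p = 0.103 from limma). Msr1 was chosen for mention after its values were seen, and it was highest in mutant 2, where most members were lowest. Scarb1, a receptor for lipoproteins, had the highest level of that list, between 26.1 and 31.1. Mrc2, the relative of Mrc1, was between 0.422 and 0.632, under the filter. Hp, which encodes haptoglobin, the partner of the CD163 ligand, ranged from 0.230 in control 2 to 1.53 in mutant 2.

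Of 23 genes of apoptotic cell clearance, 17 were tested and 0 were called, with 0 lower and 1 higher at an unadjusted p under 0.05. Mertk, a receptor for dying cells, had an FPKM of 2.66 in mutant 1, 1.84 in mutant 2, 1.37 in control 1 and 2.27 in control 2 (log2 difference 0.22, SE 0.25). The genotypes overlapped. Its ligand Gas6 had the highest level of the list, with 35.5, 23.7, 29.4 and 32.4, and was lowest in mutant 2. Of 32 genes of CD14 and toll-like receptor signalling, 7 were tested and 0 called, with 1 lower and 0 higher at an unadjusted p under 0.05. Irak3 had the highest level of that list, with 14.3 and 12.6 in the mutants and 18.9 and 17.8 in the controls (log2 difference -0.42, SE 0.18, adjusted p = 0.546 from limma). Tlr4, the receptor that CD14 serves, was between 0.0858 and 0.171, and its partner Ly96 between 0.289 and 0.576. Of 20 genes of the lysosome and lysozyme family, 18 were tested and 0 called, with 1 lower and 0 higher at an unadjusted p under 0.05, and Lamp1 was the highest, at 228 to 241.

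Markers of T, natural killer, neutrophil and mast cells were mostly under an FPKM of 1, whereas the wider leukocyte and macrophage list was divided. Of 40 genes that leukocytes and macrophages use, 16 were tested, 0 were called and 0 passed an unadjusted p under 0.05, and 20 were under an FPKM of 1 in every sample. Ptprc, the pan-leukocyte marker CD45, had an FPKM of 0.171, 0.154, 0.158 and 0.221 in mutant 1, mutant 2, control 1 and control 2, and Itgam, which encodes CD11b, had 0.275, 0.261, 0.217 and 0.431. The highest level of the list was that of Aif1, which encodes IBA1. Its FPKM was 41.6 in mutant 1, 124 in mutant 2, 133 in control 1 and 109 in control 2. Unlike 9 of the 10 members it was lowest in mutant 1, the library with the lowest summed level of spermatid markers. Aif1 was an exception in its list, since 14 of the 16 genes tested were higher in mutant 1 than in mutant 2. Their median of mutant 1 minus mutant 2 was 0.51 on the log2(FPKM + 1) scale. Of 17 T cell and natural killer cell markers listed, 16 were analysed here and 14 were under an FPKM of 1 in every sample. Of 17 neutrophil and mast cell markers, 16 were analysed here and 15 were under it. In each of the lists for T, B and granular cells 1 gene was tested, Zap70, Pax5 and Kit, of which Kit is also a spermatogonial gene, and 0 were called or passed an unadjusted p under 0.05.

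Markers of the main testicular cells differed between libraries as well. The summed FPKM of the 10 macrophage genes was 61.8 in mutant 1, 40.1 in mutant 2, 50.1 in control 1 and 63.2 in control 2. That of the Leydig cell markers, of which 9 were tested and 0 called, with 0 lower and 1 higher at an unadjusted p under 0.05, was 484, 265, 411 and 157 in the same order. Insl3, the most abundant of them, had an FPKM of 326, 157, 266 and 51.5. Mutant 1 was above mutant 2 for both lists, but control 2 had the highest macrophage and the lowest Leydig sum. The rank of control 2 rested on Lyz2, without which the macrophage sums were 46.9, 29.3, 38.4 and 39.3 in the same order, with mutant 1 the highest. The sums of the Sertoli cell markers, of which 12 were listed and 11 analysed here, were 833, 718, 562 and 753, with 0 called and 0 at an unadjusted p under 0.05. The round spermatid sums were 588, 1037, 969 and 808, also with 0 called and 0 at an unadjusted p under 0.05. Of the 11 elongating spermatid markers 1 was called lower, Tekt4, with 2.14 and 4.91 in the mutants and 201 and 158 in the controls (adjusted p = 5.08e-05 from limma), and Tnp2 was the highest, at 240 in mutant 1 and 1154 to 1810 in the other libraries. Mutant 1 thus had the lowest spermatid sums and, for 5 of the 10 macrophage genes, the highest level. The part of the germ cell makeup in the difference between the mutant samples was not tested.

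**Figure D4:**
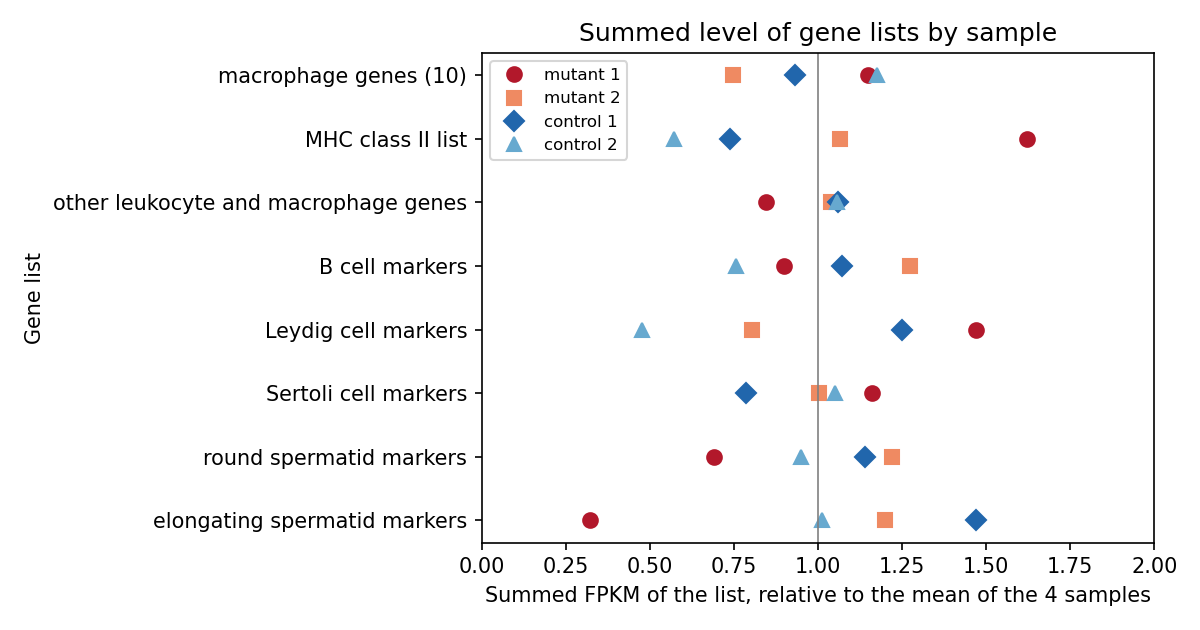
Summed FPKM of 8 gene lists in each sample, relative to the mean of the 4 samples (horizontal axis, where 1 is the mean). The macrophage sum was lowest in mutant 2, at 0.746, the MHC class II sum was above 1 in both mutant samples and below it in both control samples, and the elongating spermatid sum was 0.322 in mutant 1. The other leukocyte and macrophage list summed to 149, 183, 187 and 186 in mutant 1, mutant 2, control 1 and control 2. Aif1 alone gave 41.6, 124, 133 and 109 of these. The low place of mutant 1 in that list rested on Aif1.

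The remaining lists gave no call. Of the spermatogonia and spermatocyte markers, 14 were tested and 0 called, with 0 at an unadjusted p under 0.05, and Sycp3 was the highest, at 152 to 203. Of the peritubular and endothelial cell markers, 12 were tested and 0 called, with 1 lower and 0 higher at an unadjusted p under 0.05, and Acta2 lay between 50.5 and 72.2. Of 10 red blood cell markers listed, 8 were analysed here, 5 were tested and 0 called, with 2 lower and 0 higher at an unadjusted p under 0.05. Both were globin genes chosen for mention after their values were seen. Hba-a2, of alpha globin, had an FPKM of 30.9 in mutant 1, 18.8 in mutant 2, 43.1 in control 1 and 62.9 in control 2, and Hbb-b2, of beta globin, had 3.86, 0.965, 6.82 and 13.8, so that both were lowest in mutant 2. Hba-a1, the highest gene of the list, had 12.2, 94.2, 23.6 and 110 in the same order, with mutant 1 and control 1 as the low samples. The division of reads between such near-identical globin copies is uncertain. The summed FPKM of the list was 49.6, 128, 76.5 and 197, which is not the order of the macrophage sum.

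The 5 genes outside these lists with the profile most like the mean of the 8 tested members were Trappc2, Sepp1, Ankrd58, Tmem132a and Serpinb1a. Likeness was the Euclidean distance over the 4 samples between centred log2(FPKM + 1) values, which was between 0.0231 and 0.0444 for these genes and had a median of 0.428 over 12800 genes. Sepp1, for selenoprotein P, had an FPKM of 23.4 in mutant 1, 16.3 in mutant 2, 20.1 in control 1 and 22.4 in control 2. With 4 samples many genes have such a profile, and 1177 lay closer to the mean than the median member did.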

How the data were processed

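Total RNA of whole testes was sequenced on an Illumina HiSeq instrument. The authors aligned reads to mm9 with TopHat2 2.0.6 and deposited 1 table per sample, which holds gene-level FPKM from Cufflinks and their lower and upper confidence bounds. These values are already normalized for gene length and depth, and the library strand is not given in the sources used here. Cuffdiff, which the authors ran on pooled duplicates, cannot be rerun on FPKM.

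Entries that shared a symbol were summed. A pseudocount of 1 was added and log2 taken, and genes that reached an FPKM of 1 in 2 or more of the 4 samples were tested in limma 3.58.1 under R 4.3.3 (lmFit, eBayes with a trend), two-sided. Adjustment was by Benjamini-Hochberg and the threshold 0.05. Fragments behind a value were estimated from the upper bound, taken as 2 standard errors of a Poisson count, and cover counting error only. They were not used as counts. On simulated data with 200 of 12985 genes changed by 2 on the log2 scale, 100% of the changed and 7 of the unchanged genes were called. That change is larger than the difference of any member, so that the power for smaller changes is not given by it.

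The members and lists were chosen with earlier results of these data known. All 10 members are named. Of the other lists, direct partners, paralogs and defining markers, every gene with an adjusted p under 0.05 and the highest gene of each list are named. Nothing in the labels says that samples with the same number were paired. The replicates are called biological in the study, and p-values measure only the spread between these samples. Positions are from GENCODE M1 on NCBIM37 (mm9), and promoters from RefSeq on GRCm38.p6. Alternatives were a pseudocount of 0.1, no filter, a filter at 0.1, quantile normalization, median-ratio scaling, a fit with no variance trend, a replicate block, the highest entry per symbol and each sample left out. A crossed replicate block was added after seeing the data.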

Additional observations from a re-analysis of the deposited data

How the results depend on the processing

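No member was called in limma under any of 13 alternatives, with an adjusted p of 0.327 at the lowest. Among 106 member values under these alternatives, 98 kept their direction and side of the threshold and 8 changed sign, in each case when a library was left out. Over the 4 fits that each left out a library, the log2 difference ran from -0.19 (without mutant 1) to 0.33 for Csf1r, from -0.17 (without mutant 1) to 0.57 for C1qa, from -0.42 to 0.072 (without mutant 2) for Emr1, from -0.35 to 0.16 (without mutant 2) for C1qb and from -0.59 to 0.20 (without mutant 2) for C1qc. It ran from -0.26 to 0.10 (without control 2) for Mrc1, which was 0.024 without mutant 2, from -0.86 to 0.12 (without control 2) for Lyz2, and from -0.56 (without mutant 1) to -0.087 (without mutant 2) for Cd68. The median of the members ran from -0.38 without mutant 1 to 0.11 without mutant 2. A group left with a single sample was assumed to vary like the other.

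Over all genes, 327 were called lower and 40 higher. These counts were 199 and 17 without a filter, and 17 higher with median-ratio scaling. With a replicate block they were 525 and 70. Same-numbered samples deviated from their group means with a correlation of -0.15 across genes. With 2 samples per genotype this value cannot show whether they were paired. With the crossed replicate block no member was called either. Leaving out a library gave 167 to 948 lower and 13 to 162 higher genes. The cause of these shifts was not tested. Members under an FPKM of 1 rest on few fragments, and the pseudocount shrinks their differences.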
